A study of Mus musculus with 8 samples.

Results

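The collagen genes of mouse skin are described here, in RNA sequencing of dorsal skin from 8 female BALB/c mice. They were chosen by name alone, as every protein-coding gene whose symbol is Col, a number, the letter a and a number, which gave 44 of the 22740 genes listed. Sorted by the kind of assembly their proteins form, these were 11 fibrillar, 9 network-forming, 8 beaded filament and anchoring fibril, 9 fibril-associated and 4 transmembrane collagen genes, and 3 multiplexin and other genes. All 44 had a position in the GENCODE vM21 annotation of GRCm38, and 39 passed the filter on low counts and were tested.

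The study asked how butyrate, a short-chain fatty acid, acts on skin exposed to house dust mite (HDM) allergen. There were 4 groups of 2 mice of the same strain, with 1 library per mouse. Baseline CTL mice drank plain water and met no allergen (replicates 1 and 2), and baseline butyrate mice drank 400 mM sodium butyrate without allergen (replicates 1 and 3). Lesional CTL mice (replicates 4 and 5) and lesional butyrate mice (replicates 3 and 4) received 15 µg of HDM extract on shaved skin under a patch in each of 4 exposures over 2 weeks, the latter with the same drinking water treatment from 2 weeks before the first exposure. The mice were 6 to 8 weeks old at exposure and ate a low-fibre diet. The first number of the label differs between the baseline set and the lesional set, so that the allergen and anything else that differs between these sets cannot be told apart.

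Collagens are built of alpha chains, each from its own gene, that wind around each other into a stiff helix. Fibrillar collagens carry the tension of the dermis, network collagens form the sheets of basement membranes, and beaded filament, anchoring fibril and transmembrane collagens link these sheets to cells and to the dermis. In skin, fibroblasts make most of the dermal chains, whereas basal keratinocytes make the transmembrane and anchoring fibril chains that hold the epidermis down. Because whole skin was sequenced, fewer cells of a type and less RNA per cell cannot be told apart.

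Libraries held between 18004136 and 21085544 counts, and the floor of 3 counts was 0.138 to 0.169 CPM. CPM are counts brought to a common library size, here TMM-scaled, that is, adjusted for the composition of each library. Markers of the labelled tissue were present in every mouse, with a summed level of 7892 to 13521 CPM over 9 basal keratinocyte markers and of 1701 to 3690 CPM over 10 fibroblast markers, none of which was at 0. The library of baseline butyrate replicate 3 stood apart. Between the baseline butyrate mice, 3760 of 14196 genes with a mean of at least 1 CPM (26.5%) differed more than 2-fold, against 275 (1.94%) between the baseline CTL mice, 203 (1.43%) between the lesional CTL mice and 683 (4.81%) between the lesional butyrate mice. In that replicate 3, hair matrix and shaft markers summed to 3009 CPM, against 23.6 to 50.8 CPM in the other 7 mice, and skeletal muscle markers to 9826 CPM, against 39472 to 47812 CPM in the other 3 baseline mice. 

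Collagen genes shared in this spread. Of 35 collagen genes at this level, none differed more than 2-fold between the baseline CTL mice and 1, Col4a4, between the lesional CTL mice. Between the baseline butyrate mice 18 did, of which 15 were higher in replicate 1 and 3 in replicate 3. Between the lesional butyrate mice 10 did, all of them higher in replicate 4, and these were Col1a1, Col1a2, Col3a1, Col5a1, Col5a2, Col6a1, Col6a2, Col6a6, Col8a1 and Col14a1. Fibroblast markers in the same lesional butyrate mice summed to 2320.5 and 3123 CPM in replicates 3 and 4. Their part in the spread of the collagen genes was not tested.

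**Figure D1:**
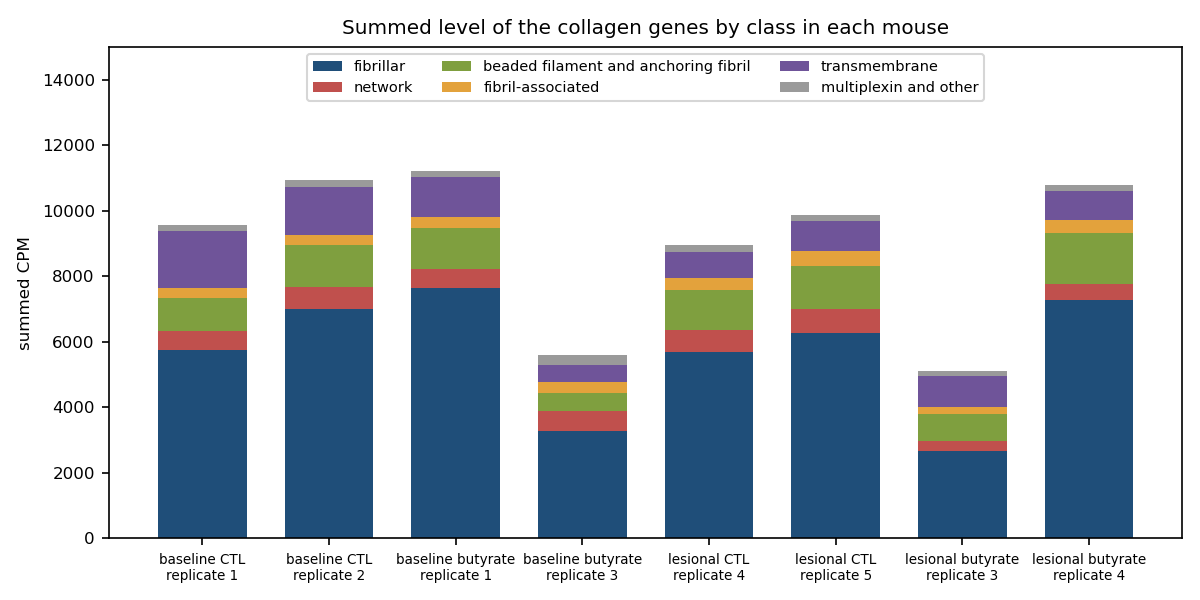
Summed level of the 44 collagen genes in each mouse, in CPM (vertical axis), with 1 bar per mouse and stacked colours for the classes. Baseline butyrate replicate 3 (5585 CPM) and lesional butyrate replicate 3 (5093 CPM) have the shortest bars, and the other 6 mice lie between 8970 and 11220 CPM.

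Together the 44 genes took 0.528% to 1.10% of the counts of a library. Their summed level was 9564 and 10924 CPM in the baseline CTL mice, 11220.3 and 5585 in the baseline butyrate mice, 8969.6 and 9870.2 in the lesional CTL mice and 5093 and 10788 in the lesional butyrate mice. The CTL mice of both skin states lay close together, while each butyrate pair held 1 mouse at a level near that of CTL mice and 1 mouse well below. Fibrillar genes made up most of the sum, as the stacked bars of summed CPM show. They reached 5755 and 7009 CPM in baseline CTL and 5673 and 6263 in lesional CTL skin, and 7643 and 3267 in baseline butyrate and 2680.3 and 7261 in lesional butyrate skin.

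The transmembrane class followed another order. It summed to 1749.6 and 1451 CPM in baseline CTL skin, 1244 and 517 in baseline butyrate, 798 and 915 in lesional CTL and 973 and 882 in lesional butyrate skin. The lesional mice of both treatments thus lay between the baseline butyrate mice and below the baseline CTL mice. Col17a1 provided nearly all of this sum.

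Levels of different genes were compared per length of the principal transcript, as mean CPM per kilobase over the 8 mice. On this scale Col3a1 ranked first with 476, ahead of Col1a2 with 252, Col1a1 with 198 and Col17a1 with 186 CPM per kilobase. The type VI chains Col6a2 (79.9) and Col6a1 (79.2) and the basement membrane chain Col4a1 (48) came next. The order behind Col3a1 depends on the length used. Per kilobase of all exons of a gene, an alternative chosen after seeing the data, Col3a1 had 270.0, Col1a1 179, Col17a1 169, Col1a2 109, Col6a1 74.2 and Col6a2 37.9 CPM. The order also differs between groups, since in baseline CTL skin Col17a1 (283) lay above Col1a1 (249 CPM per kilobase of the principal transcript). The 5 genes that did not pass the filter on low counts were Col2a1, Col9a1, Col9a2, Col10a1 and Col19a1, with means of 0.0597 to 0.281 CPM. Col2a1, Col9a1, Col9a2 and Col10a1 are known as cartilage collagens, and 4 of the 7 cartilage markers had 0 counts in at least 1 mouse. The other 3 passed the filter. Of these Sox9 was at 72.7 to 180 CPM and Comp at 0.842 to 3.68 CPM in the 8 mice.

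**Figure D2:**
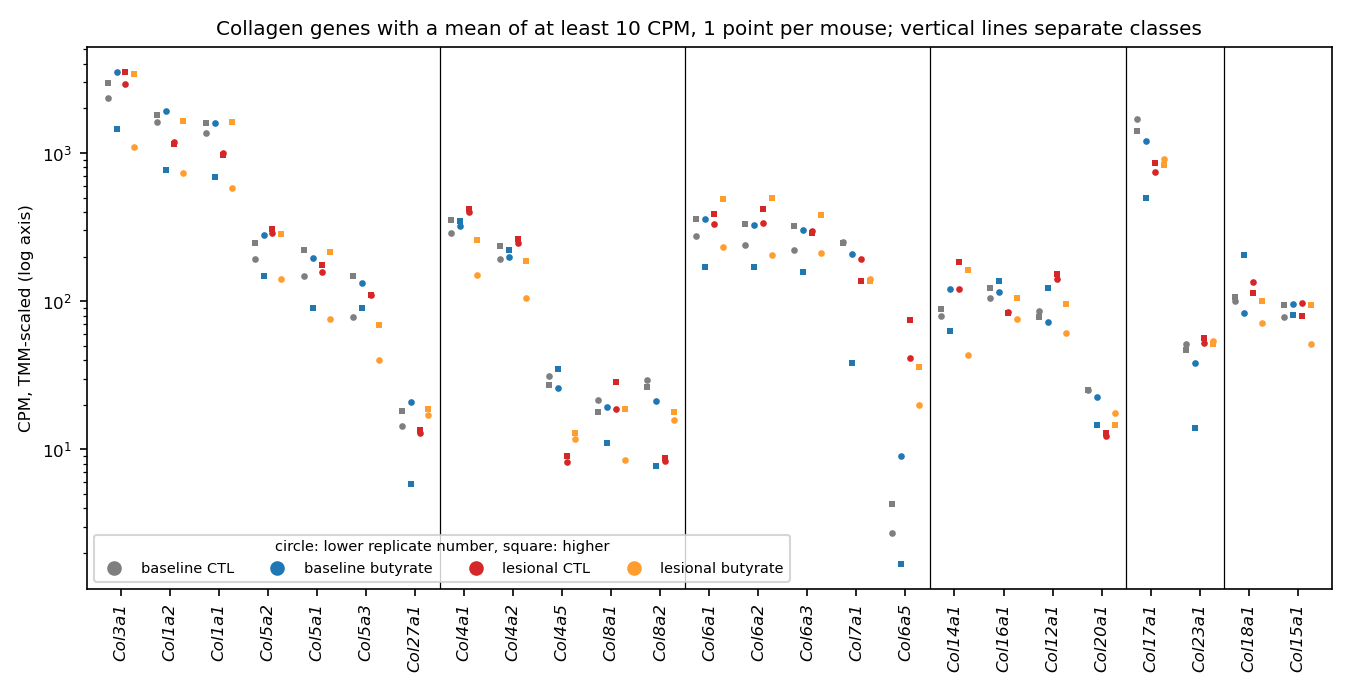
Level of each collagen gene with a mean of at least 10 CPM, in TMM-scaled CPM on a log axis, with 1 point per mouse coloured by group and classes set apart by vertical lines. The 2 mice of each CTL group lie close together for most genes, the 2 mice of the butyrate groups are spread more widely, and Col6a5 and Col4a5 show the lesional mice apart from the baseline mice in opposite directions.

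Among the fibrillar collagens, 10 of 11 genes were tested and 7 had a mean of at least 10 CPM. Col1a1 and Col1a2 encode the chains of type I collagen, the main fibril of the dermis. Col1a1 was measured at 1364 and 1592 CPM in baseline CTL, 1592 and 691 in baseline butyrate, 1003 and 963 in lesional CTL and 579.9 and 1610.1 in lesional butyrate skin. Col1a2 was measured at 1612 and 1803 CPM in baseline CTL, 1904 and 768 in baseline butyrate, 1177 and 1155 in lesional CTL and 726 and 1648 in lesional butyrate skin. Both chains were lower in the 2 lesional CTL mice than in the 2 baseline CTL mice, and both were low in replicate 3 of each butyrate group. Their ratio per kilobase (Col1a1 over Col1a2) stayed between 0.72 and 0.881 in all 8 mice. Over the length of all exons it was 1.51 to 1.85, so that which chain is the higher depends on the length used.

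Col3a1 encodes the chain of type III collagen, which forms fibrils with type I and is prominent in young and healing dermis. Its level was 2333 and 2964 CPM in baseline CTL, 3507 and 1458 in baseline butyrate, 2914 and 3531 in lesional CTL and 1088 and 3406 in lesional butyrate skin. Per kilobase, the level of Col3a1 was 1.82 and 1.98 times that of Col1a1 in baseline CTL, 2.35 and 2.25 in baseline butyrate, 3.1 and 3.91 in lesional CTL and 2 and 2.25 in lesional butyrate skin. Both lesional CTL mice had a higher ratio than the other 6 mice. Over the length of all exons the ratio was 1.14 to 2.45 in the 8 mice. The order of the mice is the same by construction, since the lengths do not differ between mice. This ratio is a description of these mice, with no test.

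The type V genes encode the minor chains that start fibrils and set their width. Col5a1 was at 147 and 221 CPM in baseline CTL, 195 and 90.1 in baseline butyrate, 158 and 176 in lesional CTL and 75.8 and 214 in lesional butyrate skin. Col5a2 was at 192 and 247 CPM in baseline CTL, 277 and 147 in baseline butyrate, 289 and 306 in lesional CTL and 141 and 283 in lesional butyrate skin. In both, replicate 3 was the lower mouse of each butyrate pair. Col5a3, the remaining type V chain, was at 77.7 and 149 CPM in baseline CTL, 133 and 90.2 in baseline butyrate, 109.9 and 111 in lesional CTL and 40.1 and 68.7 in lesional butyrate skin. For Col5a3 both lesional butyrate mice lay below the other 6 mice. Col27a1, best known from developing cartilage, was at 14.4 and 18.1 CPM in baseline CTL, 20.8 and 5.84 in baseline butyrate, 12.9 and 13.4 in lesional CTL and 17 and 18.7 in lesional butyrate skin. Its lowest value belonged to baseline butyrate replicate 3. The other 3 tested fibrillar genes, Col11a1, Col11a2 and Col24a1, had means of 3.25 to 5.84 CPM.

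Among the network collagens, 8 of 9 genes were tested and 5 had a mean of at least 10 CPM. Col4a1 and Col4a2 encode the type IV chains found in nearly every basement membrane, including those of vessels. Col4a1 was at 289 and 355 CPM in baseline CTL, 319.7 and 347 in baseline butyrate, 399 and 419 in lesional CTL and 149.7 and 260.0 in lesional butyrate skin. Col4a2 was at 193 and 236 CPM in baseline CTL, 199 and 221 in baseline butyrate, 246 and 263 in lesional CTL and 106 and 187 in lesional butyrate skin. For both genes the lesional CTL mice were the highest of the 8 mice and the lesional butyrate mice the lowest. These genes stand head to head on chromosome 8, with Col4a1 at chr8:11198423-11312826 on the minus strand and Col4a2 at chr8:11312805-11449287 on the plus strand, overlapping by 22 bp, where reads of either gene cannot be told apart if the libraries did not keep strand. Their ratio per kilobase (Col4a1 over Col4a2) was 1.35 to 1.58 in all 8 mice.

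Col4a5 and Col4a6 encode the chains that join in the basement membrane under the epidermis, and they too stand head to head, on chromosome X. Col4a5 was at 31.4 and 27.2 CPM in baseline CTL, 26 and 35.1 in baseline butyrate, 8.16 and 9 in lesional CTL and 11.7 and 12.8 in lesional butyrate skin. Col4a6 was at 1.33 and 1.11 CPM in baseline CTL, 0.845 and 0.608 in baseline butyrate, 0.213 and 0.277 in lesional CTL and 0.286 and 0.279 in lesional butyrate skin, and its counts were 24 and 20, 15 and 13, 4 and 6, and 6 and 6 in that order, so that the lesional values lie near the floor of 3 counts. In both genes the 4 baseline mice lay above the 4 lesional mice with no overlap. The last head-to-head pair, Col4a3 and Col4a4, which encode chains best known from the kidney filter, had means of 3.18 and 2.26 CPM.

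Col8a1 and Col8a2 encode the chains of type VIII collagen, a short network collagen of vessel walls and of the basement membrane of the corneal endothelium. Col8a1 was at 21.6 and 17.9 CPM in baseline CTL, 19.2 and 11 in baseline butyrate, 18.7 and 28.6 in lesional CTL and 8.54 and 18.7 in lesional butyrate skin. Col8a2 was at 29.4 and 26.3 CPM in baseline CTL, 21.4 and 7.71 in baseline butyrate, 8.32 and 8.81 in lesional CTL and 15.8 and 18 in lesional butyrate skin. For Col8a2 the lesional CTL mice and baseline butyrate replicate 3 were the 3 lowest mice. Per kilobase, Col8a1 exceeded Col8a2 in both lesional CTL mice (1.9 and 2.75 times) and in baseline butyrate replicate 3, and was below it in the other 5 mice. Over the length of all exons it was below Col8a2 in that replicate 3 as well (0.816 times).

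Type VI collagen forms beaded filaments around cells, and all 8 genes of the beaded filament and anchoring fibril class were tested. Col6a1 was at 276 and 356 CPM in baseline CTL, 361 and 169.7 in baseline butyrate, 329 and 386 in lesional CTL and 232 and 489 in lesional butyrate skin. Col6a2 was at 237 and 329.6 CPM in baseline CTL, 327 and 170.1 in baseline butyrate, 339 and 418 in lesional CTL and 205 and 498 in lesional butyrate skin. Col6a3 was at 222 and 319 CPM in baseline CTL, 302 and 157 in baseline butyrate, 299 and 289.5 in lesional CTL and 212 and 382 in lesional butyrate skin. The proportions of these chains of the common type VI assembly varied little between mice, with a ratio per kilobase of Col6a1 to Col6a2 between 0.891 and 1.12 and of Col6a3 to Col6a1 between 0.341 and 0.422. Over the length of all exons these ratios were 1.76 to 2.21 and 0.274 to 0.339. Replicate 3 was the lower mouse of each butyrate pair for each of these chains.

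Col6a5 encodes an alternative type VI chain that can take the place of Col6a3 in the assembly, as do its neighbours Col6a4 and Col6a6 in tandem on chromosome 9. Col6a5 was at 2.72 and 4.27 CPM in baseline CTL, 9.02 and 1.68 in baseline butyrate, 41.6 and 74.5 in lesional CTL and 20 and 36 in lesional butyrate skin. All 4 lesional mice exceeded all 4 baseline mice. Col6a6 was at 5.44 and 6.16 CPM in baseline CTL, 7.78 and 4.35 in baseline butyrate, 9.66 and 14 in lesional CTL and 2.96 and 16 in lesional butyrate skin, with the 2 lesional butyrate mice at opposite ends of the range. Per kilobase, Col6a5 over Col6a6 was 0.473 and 0.656 in baseline CTL, 1.1 and 0.366 in baseline butyrate, 4.07 and 5.02 in lesional CTL and 6.39 and 2.13 in lesional butyrate skin. Col6a5 was therefore the more abundant of these neighbours per length in every lesional mouse and in 1 of 4 baseline mice.

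Col7a1 encodes the anchoring fibril that ties the epidermal basement membrane to the dermis. It was at 251 and 247 CPM in baseline CTL, 208 and 38.4 in baseline butyrate, 192 and 137 in lesional CTL and 142 and 136 in lesional butyrate skin. The value in baseline butyrate replicate 3 was well below that of the other 7 mice, which lay between 136 and 251 CPM. Col28a1, a collagen associated with nerves, had a mean of 8.36 CPM, and Col6a4 a mean of 0.705 CPM.

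Fibril-associated collagens sit on the surface of fibrils, and 6 of 9 such genes were tested. Col12a1, which links fibrils under tension, was at 86.3 and 78.1 CPM in baseline CTL, 71.9 and 122 in baseline butyrate, 140.2 and 152 in lesional CTL and 61.1 and 96.1 in lesional butyrate skin. Col14a1, a related chain of the dermis, was at 78.9 and 87.8 CPM in baseline CTL, 121 and 62.6 in baseline butyrate, 121 and 184 in lesional CTL and 43 and 162 in lesional butyrate skin. Col12a1 was highest in the 2 lesional CTL mice, and Col14a1 had within the lesional butyrate pair its lowest value and a value exceeded by lesional CTL replicate 5 alone. Col16a1, a minor chain of skin fibrils, was at 105 and 122 CPM in baseline CTL, 116 and 136 in baseline butyrate, 84.7 and 83.7 in lesional CTL and 75.8 and 106 in lesional butyrate skin. Col20a1 was at 25.3 and 25.3 CPM in baseline CTL, 22.6 and 14.7 in baseline butyrate, 12.3 and 12.9 in lesional CTL and 17.5 and 14.7 in lesional butyrate skin. For Col20a1 the baseline CTL mice were the highest and the lesional CTL mice the lowest of the 8. Col9a3 and Col22a1 had means of 3.33 and 1.19 CPM.

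All 4 transmembrane collagen genes were tested. Col17a1 encodes the hemidesmosome collagen that spans the membrane of basal keratinocytes. It was at 1695 and 1400.5 CPM in baseline CTL, 1203 and 495 in baseline butyrate, 742 and 854 in lesional CTL and 915 and 828 in lesional butyrate skin. Both baseline CTL mice lay above the other 6 mice, and baseline butyrate replicate 3 lay below them all. Col23a1, another epithelial membrane collagen, was at 51.4 and 46.8 CPM in baseline CTL, 38.3 and 13.9 in baseline butyrate, 52.5 and 56.5 in lesional CTL and 53.8 and 51.3 in lesional butyrate skin, and apart from the 2 baseline butyrate mice it lay between 46.8 and 56.5 CPM. Col13a1 and Col25a1 had means of 3.5 and 0.459 CPM.

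The multiplexins Col15a1 and Col18a1 carry heparan or chondroitin sulphate and lie at the dermal side of basement membranes. Col15a1 was at 77.9 and 94.7 CPM in baseline CTL, 95.1 and 80.7 in baseline butyrate, 96.5 and 79.1 in lesional CTL and 51.3 and 94.5 in lesional butyrate skin. Col18a1, the source of the fragment endostatin, was at 100.1 and 106 CPM in baseline CTL, 83.5 and 204 in baseline butyrate, 135 and 114 in lesional CTL and 71.3 and 101 in lesional butyrate skin. The highest Col18a1 value was that of baseline butyrate replicate 3. Col26a1 had a mean of 0.341 CPM.

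HDM exposure in mice on plain water was the comparison with collagen genes past the test. In lesional CTL against baseline CTL skin, Col6a5 rose and Col4a5, Col4a6 and Col20a1 fell. The alternative beaded filament chain thus moved in the opposite direction to 2 type IV chains of the epidermal basement membrane. The type IV chains of nearly every basement membrane, Col4a1 and Col4a2, were higher in both lesional CTL mice and not called. Their log2 fold-changes were 0.34 and 0.25. Genes were called at a false discovery rate (FDR) below 0.1 and a fold-change above 2 in edgeR's quasi-likelihood test over all 8 mice. Of 39 collagen genes 4 were called, 1 higher and 3 lower, where 3.58% of 15163 genes were called, 2.37% higher and 1.21% lower. At an unadjusted p below 0.05 there were 8 of 39, where 19.7% of all genes were at that level.

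Col6a5 had a log2 fold-change of 4.05 ± 0.82 (SE, FDR 0.0740), from a mean of 3.5 CPM to one of 58.1 CPM. Both lesional CTL mice were higher than both baseline CTL mice. Col4a5 changed by -1.77 ± 0.21 on the log2 scale (FDR 0.0294), from a mean of 29.3 CPM to one of 8.58 CPM, with both lesional CTL mice lower. Col4a6 changed by -2.28 ± 0.41 (FDR 0.0559), with the low counts given above. Col20a1, a fibril-associated chain, changed by -1.0 ± 0.23 (FDR 0.0941), just past the fold threshold. Leaving out either baseline CTL or either lesional CTL mouse left 0 of the 4 called, and leaving out either lesional butyrate mouse left 1, Col4a5. Over all genes, the 543 called became 0 and 0 without a baseline CTL mouse, 16 and 23 without a lesional CTL mouse and 109 and 117 without a lesional butyrate mouse. Without both baseline butyrate mice, 1 of which stood apart, 9 collagen genes were called, namely these 4 with Col4a3, Col22a1, Col24a1 and Col8a2, which were lower, and Col6a4, which was higher. In that fit 1860 genes were called in all.

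Other changes in the same comparison did not pass the test. Of the network genes 5 of 8 were lower in both lesional CTL mice and 2 higher, with a median log2 fold-change of -1.05, and of these 2 were called lower. Col8a2 had a log2 fold-change of -1.70 ± 0.44 and an FDR of 0.121. Of the 10 fibrillar genes 6 were lower and 1 higher in both lesional CTL mice, with none called and a median of -0.31. Col1a1 had -0.59 ± 0.56 and Col1a2 -0.55 ± 0.52 on the log2 scale, changes of about 1 standard error, with FDR values of 0.569 and 0.569. Col17a1 had -0.96 ± 0.41 (FDR 0.267). Among the beaded filament and anchoring fibril genes 4 of 8 were higher and 1 lower in both mice, and Col6a5 was the 1 called.

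Among the 6 tested fibril-associated genes 2 were higher and 4 lower, with Col20a1 called. Col12a1 had 0.83 ± 0.31 and Col14a1 0.87 ± 0.62 on the log2 scale, neither called (FDR 0.226 and 0.456). Of the 4 transmembrane genes 2 were higher and 2 lower, and of the 3 multiplexin and other genes 1 was higher and 1 lower, with none called. Over all classes the 2 groups did not overlap for 31 of 39 collagen genes, 12 higher and 19 lower, where 75.2% of all genes tested did not overlap, 36.7% higher and 38.5% lower. The median log2 fold-change of the collagen genes was -0.14, against -0.015 over all genes. 

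**Figure D3:**
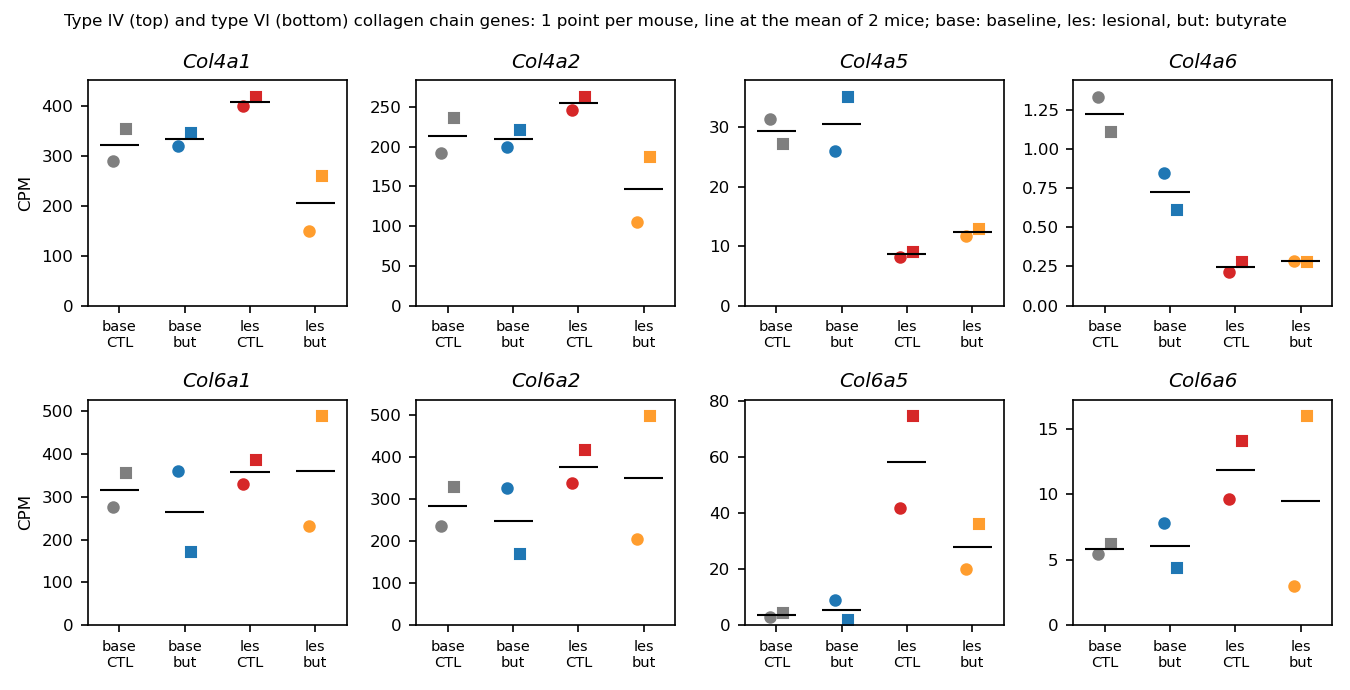
Type IV chain genes (top) and type VI chain genes (bottom) in CPM (vertical axes from 0, each with its own scale), with 1 point per mouse in the 4 groups and a line at the mean of 2 mice. Col4a5 and Col4a6 are lower and Col6a5 higher in all 4 lesional mice than in all 4 baseline mice, whereas Col4a1 and Col4a2 are lowest in lesional butyrate skin.

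Of these called genes, the type IV and type VI chains are shown with the 250 bases before their RefSeq starts, since 2 of them share a stretch of chromosome X and the other responded in the opposite direction. Sequences are from RefSeq on GRCm38.p6, 5′ to 3′ on the strand of the gene, and capitals mark the motifs found. Col6a5 lies at chr9:105856078-105960643 on the minus strand, and its upstream bases are chr9:105960644-105960893. Col4a5 lies at chrX:141475385-141689234 on the plus strand, with the printed bases at chrX:141475169-141475418. Its RefSeq start lies 34 bp downstream of the GENCODE start given here, so the last 34 printed bases fall inside the GENCODE gene, whereas both annotations share the starts of Col6a5 and Col4a6. Col4a6 lies at chrX:141165403-141474076 on the minus strand, with the printed bases at chrX:141474077-141474326. The RefSeq starts of Col4a6 and Col4a5 are 1343 bp apart.
Col6a5: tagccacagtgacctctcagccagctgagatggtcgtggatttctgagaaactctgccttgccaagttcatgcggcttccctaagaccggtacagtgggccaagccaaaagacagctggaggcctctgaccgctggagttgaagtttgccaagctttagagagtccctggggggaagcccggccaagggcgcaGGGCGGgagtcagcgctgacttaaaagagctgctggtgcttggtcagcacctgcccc
Col4a5: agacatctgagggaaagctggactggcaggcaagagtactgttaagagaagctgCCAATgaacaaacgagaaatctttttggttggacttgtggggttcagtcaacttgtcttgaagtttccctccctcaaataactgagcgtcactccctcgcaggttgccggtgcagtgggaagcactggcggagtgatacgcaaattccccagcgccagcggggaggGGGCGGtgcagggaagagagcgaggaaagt
Col4a6: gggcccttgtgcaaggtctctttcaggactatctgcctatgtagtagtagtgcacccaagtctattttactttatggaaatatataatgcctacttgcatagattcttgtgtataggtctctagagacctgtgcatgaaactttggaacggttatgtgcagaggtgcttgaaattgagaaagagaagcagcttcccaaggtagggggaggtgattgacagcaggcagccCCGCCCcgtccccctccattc
The letters GGGCGG (GC box) start 57 bases before the RefSeq start of Col6a5 and 30 bases before that of Col4a5, and lie on the other strand, printed as CCGCCC, from 21 bases before that of Col4a6. CCAAT starts 196 bases before the start of Col4a5. TATAAA, an AP-1 site (TGANTCA) and a STAT6-type site were also searched on both strands, and none was found in these windows.

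GGGCGG was held by 22 of 38 collagen promoters, from 35 genes in the table, against 32.7% of 32851 promoters of all genes. CCAAT was held by 13 of 38 and TATAAA by 5 of 38, against 33.8% and 12.4% of all promoters. The AP-1 site was held by 1 of 38 against 6.75%, and the STAT6-type site by 0 of 38 against 5.85%. A match is a description of the letters in the window.

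In butyrate-treated mice, HDM exposure left no collagen gene past the test, although Col6a5, Col4a5 and Col4a6 had the same directions as in mice on plain water. In lesional butyrate against baseline butyrate skin 0 of 39 collagen genes were called, where 0.35% of all genes were called, 0.277% higher and 0.0725% lower. Col6a5 had a log2 fold-change of 2.39 ± 0.77 (FDR 0.3) and Col4a5 of -1.33 ± 0.21 (FDR 0.111). Col4a6 had -1.35 ± 0.41 (FDR 0.288) on the same scale. The mice of the groups did not overlap for these 3 genes. At an unadjusted p below 0.05 there were 9 collagen genes, where 13.1% of all genes were at that level. DESeq2 called 2, Col6a5 and Col4a5, among 698 of all genes.

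Groups did not overlap for 13 of 39 collagen genes here, 3 higher and 10 lower, where 32.4% of all genes did not overlap, 16.4% higher and 16.0% lower. The median log2 fold-change was -0.18 over the collagen genes and -0.045 over all genes. The counts rest on the baseline butyrate mice that differed most between themselves. Without replicate 1 of that group 12 collagen genes were called, and without replicate 3, which stood apart, 3 were called, Col4a3, Col4a5 and Col22a1. Over all genes these fits called 2990 and 912. For Col6a5 the log2 fold-change was 4.03 without replicate 1 and 1.63 without replicate 3.

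Butyrate in lesional skin moved no collagen gene past the test. In lesional butyrate against lesional CTL skin 0 of 39 collagen genes were called, where 0.0% of 15163 genes were called. Limma-voom over only the 4 lesional mice called 14 of all genes, and 0 of these were collagen genes. With so few genes called in all, these counts say little about collagen genes in particular. Of the 39 collagen genes 5 had an unadjusted p below 0.05 in the main edgeR fit (4.84% of all genes did). DESeq2 called 1, Col4a1, among 124 of all genes. Without both baseline butyrate mice 188 genes were called in this comparison, and 0 of them were collagen genes.

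Of these 5 genes, the type IV chains Col4a1 and Col4a2 and 2 other chains had lower means in lesional butyrate skin. Col4a5, also a type IV chain, had a higher mean there. Col4a1 had a log2 fold-change of -1.0 ± 0.28 and Col4a2 of -0.80 ± 0.28, with both lesional butyrate mice below both lesional CTL mice. Col5a3 had -1.02 ± 0.39 and Col12a1 -0.90 ± 0.31, again without overlap. Col4a5 had 0.52 ± 0.21, in a comparison that shares the lesional CTL mice with that of HDM exposure. The FDR values of these genes were 0.823, 0.942, 0.981, 0.942 and 0.994 in the order named. These sizes rest on which lesional butyrate mouse is kept. Without lesional butyrate replicate 3, Col4a1 had -0.65, Col4a2 -0.44, Col5a3 -0.68 and Col12a1 -0.61. Without replicate 4 they had -1.45, -1.27, -1.46 and -1.26 in that order.

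The main dermal chains differed by less than 1 standard error between these groups. Col1a1 had 0.16 ± 0.56, Col1a2 0.03 ± 0.52 and Col3a1 -0.52 ± 0.62 on the log2 scale, each with overlapping mice. Col6a5 had -1.05 ± 0.72 (FDR 1), and both lesional butyrate mice were below both lesional CTL mice. Col17a1 had 0.13 ± 0.40 with overlapping mice, and Col8a2 0.98 ± 0.43 with both butyrate mice higher. Over all 39 genes the mice did not overlap for 20, 7 higher and 13 lower, where 44.9% of all genes did not overlap, 22.4% higher and 22.5% lower. The median log2 fold-change was -0.24 for the collagen genes and -0.0053 for all genes. With standard errors of 0.40 to 0.62 for Col17a1, Col1a1, Col1a2 and Col3a1, changes near 2-fold of these genes were not detectable in this fit. These standard errors rest on the spread within all 4 groups of 2 mice, not within the lesional groups alone. They thus include the spread of the baseline butyrate mice, of which replicate 3 stood apart.

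**Figure D4:**
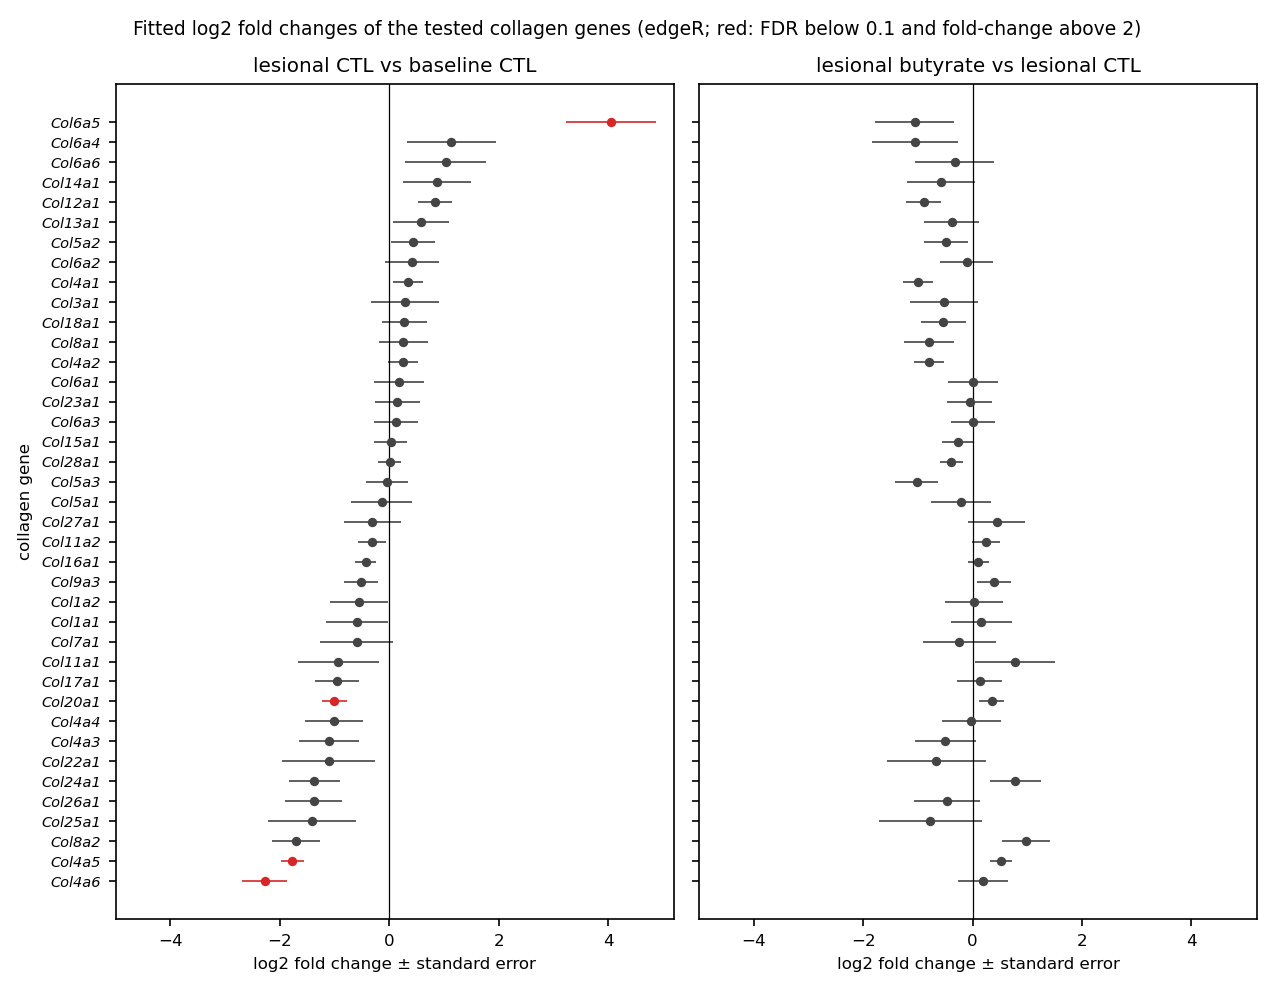
Log2 fold-changes with standard errors of the 39 tested collagen genes (vertical axis, sorted by the left panel) for lesional CTL against baseline CTL skin (left) and lesional butyrate against lesional CTL skin (right), from edgeR's fit. Red marks the 4 genes called in the left panel, Col6a5 at the top and Col20a1, Col4a5 and Col4a6 further down, and no gene is red on the right. The panels share the lesional CTL mice.

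In baseline skin, butyrate also moved no collagen gene past the test. In baseline butyrate against baseline CTL skin 0 of 39 collagen genes were called, where 0.0% of all genes were called. Col6a4, the low alternative type VI chain, was the 1 collagen gene at an unadjusted p below 0.05 (3.49% of all genes were), with 2.08 ± 0.79 on the log2 scale and an FDR of 0.714. Its CPM were 0.333 and 0.333 in baseline CTL and 0.451 and 2.34 in baseline butyrate skin, so that replicate 3 set the difference, and 0.694 and 0.784 in lesional CTL and 0.382 and 0.326 in lesional butyrate skin. Groups did not overlap for 11 genes, 2 higher and 9 lower, where 29.8% of all genes did not overlap, 13.4% higher and 16.4% lower.

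Junction genes were among those lower in both baseline butyrate mice. Col17a1 had -0.86 ± 0.41 and Col7a1 -1.01 ± 0.68 on the log2 scale (FDR 0.714 and 0.714), and basal keratinocyte markers summed to 12169 and 11664 CPM in baseline CTL and 10399.9 and 7892 CPM in baseline butyrate skin, with 8 of 9 lower in both mice and none at 0 or called. The part of these markers in the result was not tested. Without replicate 1, which leaves the mouse that stood apart, 14 collagen genes were called among 3777 of all genes, and without replicate 3 there were 0 among 0. The median was -0.18 for the collagen genes and 0.0012 for all genes.

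Whether butyrate acted differently in lesional and baseline skin was tested as the difference of both effects. No collagen gene was called (0.0% of all genes were), and 4 had an unadjusted p below 0.05, against 4.64% of all genes. These were Col8a2 with 1.92 ± 0.61, Col4a1 with -1.06 ± 0.39, Col12a1 with -1.15 ± 0.44 and Col6a4 with -3.14 ± 1.12 on the log2 scale, lesional minus baseline, each with an FDR of 0.840. Without baseline butyrate replicate 1 14 collagen genes were called among 3275 of all genes, and without replicate 3 there were 0 among 0.

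The enzymes that build and trim collagen were measured beside the chains. Of 18 genes for chain modification and folding, 12 tested genes for procollagen processing and cross-linking, 13 fibril-binding proteoglycans and glycoproteins and 10 tested collagen receptors, none was called in any of the 5 comparisons. In lesional CTL against baseline CTL skin their median log2 fold-changes were 0.082, 0.35, -0.068 and 0.44, against -0.015 over all genes. In lesional butyrate against lesional CTL skin they were -0.084, -0.43, -0.070 and -0.28, against -0.0053.

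P4hb, a subunit of the prolyl hydroxylase that stabilises the helix, was at 439 and 478 CPM in baseline CTL, 466 and 473 in baseline butyrate, 602 and 583 in lesional CTL and 619.9 and 628 in lesional butyrate skin. Serpinh1, the collagen chaperone, was at 219 and 371 CPM in baseline CTL, 324 and 244 in baseline butyrate, 271 and 351 in lesional CTL and 258 and 461 in lesional butyrate skin. Neither differed past the test. Bmp1, which trims the carboxyl end of procollagen, was at 94.6 and 111 CPM in baseline CTL, 107 and 110.1 in baseline butyrate, 142 and 146 in lesional CTL and 82.5 and 118 in lesional butyrate skin, with the lesional CTL mice the highest. Adamts2, which trims the amino end, was at 84.2 and 111 CPM in baseline CTL, 101 and 45.1 in baseline butyrate, 115 and 114 in lesional CTL and 67.3 and 101 in lesional butyrate skin.

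Sparc, a collagen-binding glycoprotein, was at 1281 and 1385 CPM in baseline CTL, 1533 and 924 in baseline butyrate, 980.0 and 1107 in lesional CTL and 597 and 1194 in lesional butyrate skin. Dcn, which encodes decorin, was at 652 and 699 CPM in baseline CTL, 845 and 462 in baseline butyrate, 812 and 911 in lesional CTL and 694 and 1248 in lesional butyrate skin. In both, replicate 3 was the lower mouse of each butyrate pair, as it was for Col1a1 and Col3a1. Itgb1, the shared chain of the collagen-binding integrins, was at 336 and 338 CPM in baseline CTL, 345 and 299.7 in baseline butyrate, 477 and 502 in lesional CTL and 315 and 396 in lesional butyrate skin, and Ddr2, a receptor kinase for fibrillar collagen, was at 142 and 146 CPM in baseline CTL, 184 and 77.9 in baseline butyrate, 169 and 236 in lesional CTL and 118 and 156 in lesional butyrate skin. Gp6, the platelet collagen receptor, had 0 counts in all 8 mice.

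Of 10 genes of TGF-beta signalling and of myofibroblasts, 1 rose and 1 fell in lesional CTL against baseline CTL skin, with a list median of -0.048. Ctgf, a matricellular gene that TGF-beta induces, changed by -1.91 ± 0.38 (FDR 0.0696), from 239 and 197 CPM to 44.3 and 71.6 CPM. The most abundant members, Fn1 (fibronectin) and Tgfbr2 (a receptor chain), had 1.17 ± 0.69 and 0.40 ± 0.44 and were not called. None of the 10 was called in the other 4 comparisons.

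Markers of other cells also differed in level between lesional CTL and baseline CTL skin. Skeletal muscle markers summed to 39472 and 47812 CPM in baseline CTL and 16948 and 23842 CPM in lesional CTL skin, with 9 of 9 lower in both mice, none called and none at 0. Schwann cell markers summed to 498 and 549 CPM and 267 and 309 CPM, with 7 of 7 lower, none at 0 and 1 called. Neutrophil markers summed to 22.8 and 26.6 CPM and 2811 and 1735 CPM, with 2 of the 9 listed at 0 in at least 1 mouse. Of the 7 tested genes 7 were called higher, where 2.37% of all genes were. Among them S100a9 and S100a8 had 8.43 ± 0.67 and 8.72 ± 0.87 on the log2 scale. These 2 genes made up most of the sum in lesional CTL skin, S100a9 with 1465 and 836 CPM and S100a8 with 999.5 and 579 CPM. Cxcr2 was at 56.8 and 64.5 CPM there. The part of these cell types in the changes of Col6a5, Col4a5, Col4a6 and Col20a1 was not tested.

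Markers of the cells known to make these chains were also measured. Basal keratinocyte markers summed to 12169 and 11664 CPM in baseline CTL and 13521 and 11798 CPM in lesional CTL skin. Of these 9 markers 3 were higher and 4 lower in both lesional CTL mice, and 1 was called, higher. Krt5 and Krt14, the keratins of basal cells, had 0.06 ± 0.26 and 0.94 ± 0.25 and were not called. Fibroblast markers summed to 2612 and 3285 CPM and 2186 and 2926 CPM, with 5 of 10 higher and 2 lower in both mice and 0 called, and Gsn and Pi16, the most abundant of them, had -0.53 ± 0.42 and 0.34 ± 0.55. The part of basal keratinocytes and fibroblasts in the changes of the collagen genes was not tested. Endothelial and pericyte markers, from vessel walls that hold type IV collagen, summed to 639 and 561 CPM in lesional CTL and 378 and 602 CPM in lesional butyrate skin, with 4 of 9 lower in both butyrate mice, none called and none at 0. The part of these cells in the lower means of Col4a1 and Col4a2 was not tested.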

How the data were processed

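Total RNA of dorsal skin was sequenced with the TruSeq RNA kit, whose strand setting is not given in the sources used here. The authors aligned the reads to GRCm38 with STAR 2.5.2, ran featureCounts on the reverse strand, and deposited raw counts of protein-coding genes per mouse without normalization. Groups were taken from the sample labels. The design text of the series counts more samples than the 8 analysed here.

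CPM were calculated from TMM-scaled library sizes. After filterByExpr with a minimum count of 10, which left 15163 genes, a model of group means over all 8 mice was fitted by robust glmQLFit of edgeR 4.0.16 under R 4.3.3, and its quasi-likelihood test was applied. The residual degrees of freedom were 4. A call needed an FDR below 0.1, adjusted by Benjamini-Hochberg over all genes tested, and a fold-change above 2, the thresholds of the study. A standard error was derived from each gene's log2 fold-change and its test statistic, and fitted fold-changes used a prior count of 0.125. P-values set a difference between groups against the spread within groups, which was estimated over all 4 groups. That estimate includes the baseline butyrate mice, which differed most between themselves. An exact permutation test of 2 against 2 mice cannot go below 0.333. DESeq2 1.42.0, the voom method of limma 3.58.1, further normalizations, filters and thresholds, and subsets of the mice were run as alternatives. The scripts were tested on simulated data. Counting error limits genes near 3 counts.

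Levels per kilobase used the APPRIS principal transcript of GENCODE vM21, or all exons of the gene where stated. Promoters were those of RefSeq on GRCm38.p6. The collagen genes, the 16 marker and pathway lists and the tests were chosen with earlier results of these data known. Values in every mouse are given for collagen genes with a mean of at least 10 CPM or called in any comparison, with Col6a6 and Col6a4 added after their values were seen. In other lists the genes called and the 2 with the highest mean are named, except that individual values of some called genes are not reported here, and Gp6 was added after its value was seen.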

Additional observations from a re-analysis of the deposited data

Results flagged for a closer look

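For 4 collagen genes both butyrate mice lay on one side of both CTL mice in lesional skin and on the other side in baseline skin. How many of all genes did so was not counted, so whether 4 is unusual cannot be said. Taken separately, 44.9% of all genes tested did not overlap between the lesional groups and 29.8% between the baseline groups. The difference of the butyrate effects, lesional minus baseline, was tested in edgeR's quasi-likelihood fit. It passed in none of these 4 collagen genes, with an FDR of 0.840 in each. Col8a2, a network chain, had a difference of 1.92 on the log2 scale, higher with butyrate in lesional skin and lower in baseline skin. Col20a1, a fibril-associated chain, had 0.78, with the same directions. Col4a6, a chain of the epidermal basement membrane, had 0.93, at counts near the floor. Col6a4, a low type VI chain, had -3.14, lower with butyrate in lesional skin and higher in baseline skin. All 4 rest on the baseline butyrate mice, of which replicate 3 stood apart. Without that replicate the difference was 1.37 for Col8a2 and -1.48 for Col6a4.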

How the results depend on the processing

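No paired analysis was possible because no 2 groups set against each other have more than 1 replicate number in common. With 2 mice per group, fits that leave out 1 mouse assume that the remaining mouse varies like those of the other groups. In lesional CTL against baseline CTL skin the 4 collagen genes called became 9 with only the mice compared, 9 without both baseline butyrate mice and 10 by limma-voom over only the mice compared, the last chosen after seeing the data, while the 543 called over all genes became 1918, 1860 and 1913. At an FDR below 0.05 there was 1, and fits without 1 mouse gave 0 to 10. All of these fits but the FDR threshold use fewer mice, and the cause of the changes was not tested. The count was 4 by limma-voom and at least 1 CPM in 2 mice, where 578 and 525 of all genes were called. By DESeq2 it was 5, where 1093 of all genes were called. It was 3, without Col20a1, under median-ratio size factors, library totals and no filter, where 541, 600 and 486 were called. At the FDR below 0.05, 245 of all genes were called. In lesional butyrate against lesional CTL skin the count was 1 by DESeq2 and 0 in every fit without 1 mouse. DESeq2 gave 2 in lesional butyrate against baseline butyrate skin, where fits without 1 mouse gave 0 to 12. The range was 0 to 14 for butyrate in baseline skin and 0 to 14 for the difference of its effects, the highest value in each of these 3 without baseline butyrate replicate 1.

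Of 30 log2 fold-changes under 471 alternatives in all, none reversed, 415 stayed on their side of the threshold, 28 were no longer called and 28 became called. The 30 were those with an unadjusted p below 0.05 in the main edgeR fit, with Col1a1, Col1a2 and Col17a1 by HDM exposure added. Since they were chosen by that fit and refitted on largely the same mice, a reversal was unlikely from the start. The absence of reversals is therefore no separate evidence. Without 1 mouse, Col6a5 ranged from 3.57 to 4.41, Col4a5 from -1.87 to -1.66, Col4a6 from -2.48 to -2.11 and Col20a1 from -1.04 to -0.97 in lesional CTL against baseline CTL skin. Without TMM, 27 of 28 summed levels moved by less than the spread between mice, and without the most abundant member of each sum 7 of 28 did and 21 moved by more.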

Other observations

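The remaining marker lists gave values beside the collagen genes. Of 8 macrophage markers 1 was called in lesional CTL against baseline CTL skin, Cd14, an endotoxin co-receptor, at 7.89 and 9.38 CPM in baseline CTL and 39.1 and 59.6 CPM in lesional CTL skin, and Lyz2 and Mrc1, the most abundant, had log2 fold-changes of 0.83 ± 0.60 and 1.14 ± 0.62. Neutrophil markers were called for 2 of 7 genes in lesional butyrate against baseline butyrate skin, S100a9 and Cxcr2, both higher. Of 8 adipocyte, 3 tested cartilage, 7 tested hair matrix and 8 cell cycle genes, none was called in any comparison. Cell cycle genes summed to 313 and 306 CPM in baseline CTL, 284 and 810.0 in baseline butyrate, 511 and 416 in lesional CTL and 409 and 483 in lesional butyrate skin, with baseline butyrate replicate 3 the highest.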
